A study of Homo sapiens with 2 samples.

Results

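The genes described here are 10 zinc transporter genes, found by their symbols among the 33694 genes of the deposited tables. They are 6 of the SLC30A family, which encode the ZnT proteins (SLC30A1, SLC30A2, SLC30A5, SLC30A7, SLC30A8 and SLC30A9), and 4 of the SLC39A family, which encode the ZIP proteins (SLC39A1, SLC39A6, SLC39A7 and SLC39A14). Their levels were measured in eBCs, clusters of pancreatic beta cells made from human embryonic stem cells, by single-cell RNA-seq on the 10X Genomics platform. The starting line was iSOX9KO, 1 clone of the Mel1-INS-GFP line, in which GFP stands at the insulin gene, and which carries a doxycycline-inducible Cas9 together with 3 guide RNAs against SOX9. Cells were cultured either without DOX or with DOX at 2 µg/ml from day 12, just before endocrine specification, to day 28. In both arms the cells were sorted for high GFP at day 20, matured in a medium that held 10 µM zinc sulfate, and sorted for live cells before capture. All cells compared here therefore carried the inducible cassette and were grown with added zinc.

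ZnT proteins move zinc out of the cytosol, either across the plasma membrane or into organelles, while ZIP proteins move it into the cytosol from outside the cell or from organelles. Pancreatic beta cells hold more zinc than most cells, because insulin is stored as crystals around zinc in secretory granules, and ZnT8, the product of SLC30A8, loads those granules. Cytosolic zinc is buffered by metallothioneins and sensed by the factor MTF1, which switches on metallothionein genes and SLC30A1 through short promoter sequences named metal response elements.

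Without DOX, 30288 barcodes had a median of 15991 UMIs (unique molecular identifiers, 1 per captured RNA molecule), and with DOX 31817 barcodes had a median of 14431. After barcodes under 1000 UMIs and called doublets were left out, 44680 cells remained, of which 139 carried a barcode present in both libraries. Clustering without any SLC30A or SLC39A gene gave 6 classes named from markers, with 16676 cells beta-like, 9128 alpha-like, 4569 delta-like, 329 duct-like, 10681 beta cell progenitor-like and 963 proliferating progenitor-like. The cluster of beta-like cells was led by the metallothioneins MT1B and MT1M followed by IAPP, and the duct-like class also held acinar transcripts, with a summed level of 123.1 UMIs per 1000000 UMIs (CPM) without DOX and 498.2 with it. A further 2334 cells, with a median of 70.8% mitochondrial UMIs, stayed unnamed. RNA of SOX9, at which the guides were aimed, was not lower under DOX: duct-like cells held 246.6 CPM of it without DOX and 282.5 CPM with it. The study reported editing of the SOX9 gene and less SOX9 protein with DOX in cells of this line. The RNA level does not show whether the protein was lost in these libraries. It could not be used to check the labels, and libraries are called by what their labels say. With 1 library for each condition, conditions could not be tested against each other, and the 95% intervals cover counting error alone.

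The sequences below show where zinc-sensing elements could lie in front of the members whose levels followed metallothioneins. They are the 250 bases before the transcription start of SLC30A1 (chr1:211579162-211579411, minus strand) and SLC30A2 (chr1:26046119-26046368, minus strand), with the metallothionein gene MT2A (chr16:56608334-56608583, plus strand) for comparison, from RefSeq on GRCh38.p14 and written 5′ to 3′ along the gene's strand. Capitals mark the letters TGCACNC or TGCGCNC, the core of the metal response element, or its reverse complement.
SLC30A1: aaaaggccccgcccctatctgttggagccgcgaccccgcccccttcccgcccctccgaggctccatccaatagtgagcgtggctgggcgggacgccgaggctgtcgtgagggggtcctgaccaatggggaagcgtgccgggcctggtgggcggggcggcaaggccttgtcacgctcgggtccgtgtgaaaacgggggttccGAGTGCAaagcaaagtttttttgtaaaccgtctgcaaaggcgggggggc
SLC30A2: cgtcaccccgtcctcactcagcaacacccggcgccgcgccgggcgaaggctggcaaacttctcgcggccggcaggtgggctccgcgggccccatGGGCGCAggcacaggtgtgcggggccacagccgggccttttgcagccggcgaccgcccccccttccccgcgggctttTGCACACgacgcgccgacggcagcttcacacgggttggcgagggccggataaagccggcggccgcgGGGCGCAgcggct
MT2A: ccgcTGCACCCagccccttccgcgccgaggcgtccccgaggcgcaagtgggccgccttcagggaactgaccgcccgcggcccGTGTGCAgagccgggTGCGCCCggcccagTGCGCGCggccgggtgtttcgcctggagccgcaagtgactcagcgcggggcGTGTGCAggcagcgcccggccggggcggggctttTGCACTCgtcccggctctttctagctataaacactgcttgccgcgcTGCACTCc

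In these windows SLC30A1 held 1 match, which began 49 bases before the start, SLC30A2 held 3 matches, and MT2A held 7. Of all 35116 promoter entries of the same length, 24.8% held at least 1 match and 1.58% held at least 3. No 2 matches overlapped in the printed windows. Of the 10 members, 8 had an entry. SLC39A6 and the second of 2 entries of SLC39A1 held 1 match each, and SLC30A5, SLC30A7, SLC30A9 and SLC39A7 held 0. SLC30A8 and SLC39A14 were not searched here. A match is a string of letters and not a shown binding site.

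SLC30A8 differed most between the classes, and it was highest in beta-like cells. Its level in beta-like cells was 627.6 CPM (95% interval 623.3 to 632.0) without DOX and 581.9 CPM (578.2 to 585.8) with it. Alpha-like cells followed at 276.8 and 261.3 CPM, and proliferating progenitor-like cells held 199.7 and 179.6 CPM. Next in the order came the beta cell progenitor-like class (200.3 and 163.8 CPM) and the delta-like class (166.9 and 171.1 CPM). Duct-like cells were lowest at 33.49 CPM (26.68 to 41.52) and 38.02 CPM (31.42 to 45.6), 16.7-fold below beta-like cells over both libraries in UMIs counted. How much of the duct-like UMIs is free RNA was not tested, and with any such part the fold is a lower bound. The order from beta-like to alpha-like to proliferating progenitor-like cells, and the gap down to duct-like cells, held in each library beyond counting error. The proliferating progenitor-like, beta cell progenitor-like and delta-like cells could not be put in an order that held in both. SLC30A8 lies on chromosome 8.

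With each cell thinned to 5000 UMIs, which left out between 6 and 609 shallower cells of a class without DOX and between 1 and 488 with it, the most in the alpha-like class, SLC30A8 was seen in 90.4% of beta-like cells (95% exact binomial interval 89.93 to 90.85) and in 63.63% of alpha-like cells. The share was 49.61% in proliferating progenitor-like, 41.55% in delta-like and 39.42% in beta cell progenitor-like cells. In duct-like cells, which are not known to make ZnT8, it was 10.87% (7.689 to 14.79). Without thinning the share was 97.49% of beta-like cells at a median of 15909.5 UMIs and 27.36% of duct-like cells at a median of 14496 UMIs. INS itself was counted in 100% of the cells of all 6 classes, duct-like cells included. The duct-like share of SLC30A8 was 7.586% without DOX and 13.56% with it, and at this level free RNA in the droplets, uncalled doublets and SLC30A8 made by the cells cannot be told apart, so it is not read as expression.

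**Figure D1:**
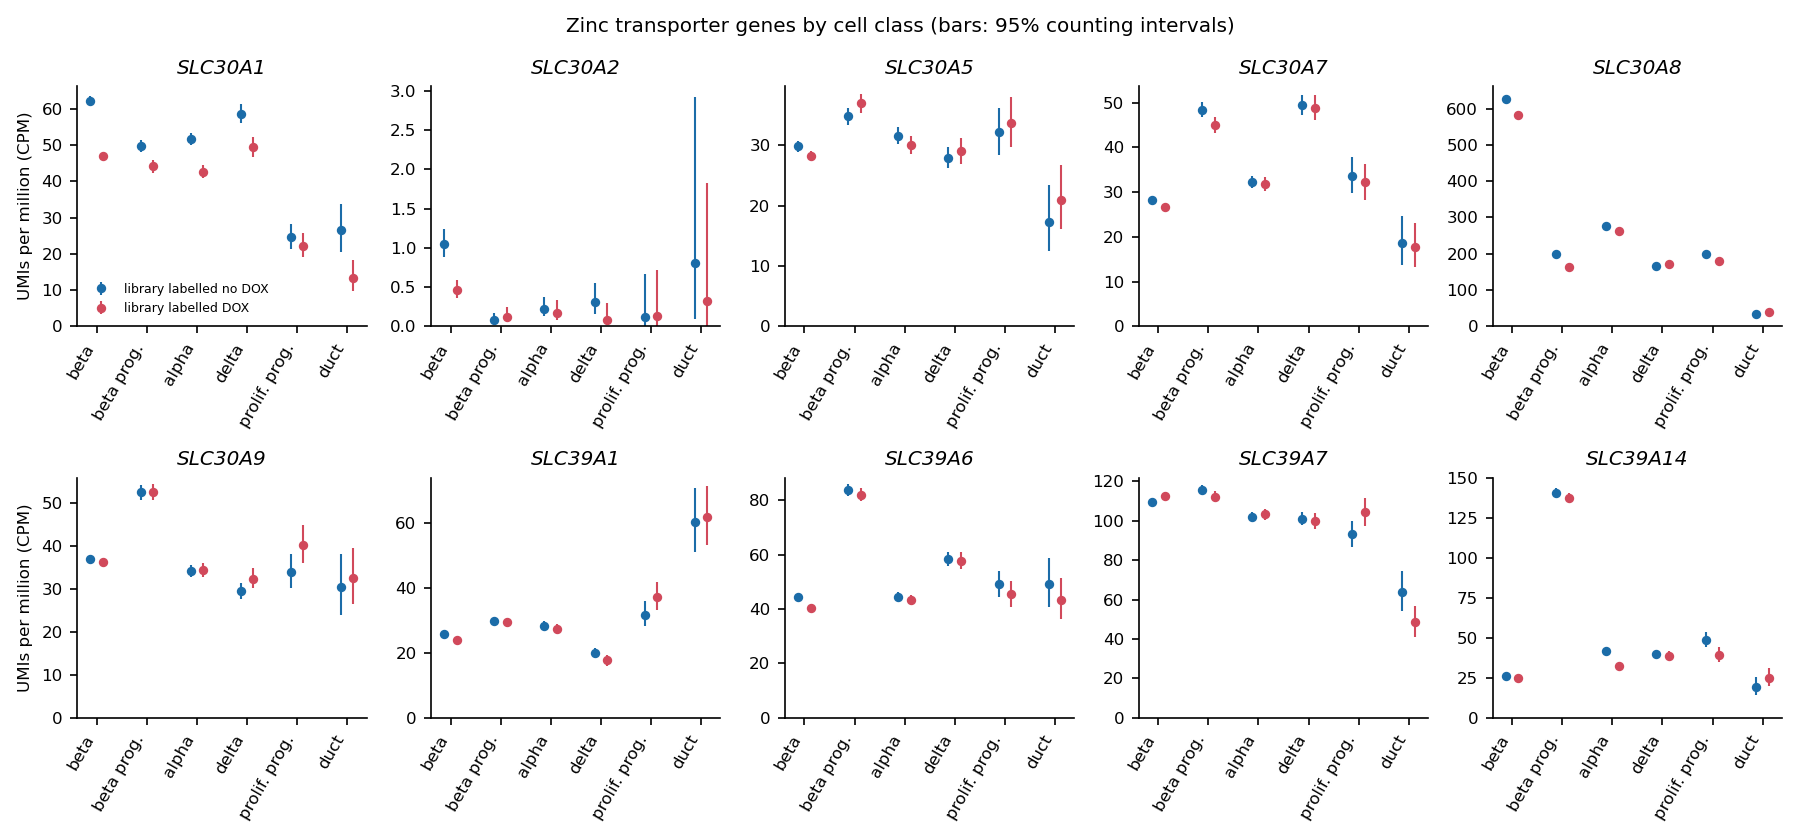
Level of each zinc transporter gene (UMIs per 1000000 UMIs of the class) in the 6 cell classes, with 1 point for each library and bars for the 95% counting interval. SLC30A8 falls from about 600 CPM in beta-like cells to below 40 CPM in duct-like cells, SLC39A14 stands out at 140.9 and 137.7 CPM in the beta cell progenitor-like class, and SLC39A1 is highest in duct-like cells at 60.53 and 61.95 CPM.

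Across clusters SLC30A8 was mostly higher where INS was higher. Over 22 points, the 11 larger clusters (10 named, and the unnamed cluster rich in mitochondrial UMIs) in each of the 2 libraries, the genes whose log2 levels were most like that of SLC30A8 among 8965 ranked included ACVR1C (Pearson r = 0.981), which encodes an activin receptor of beta cells, INS (r = 0.951), SURF4 (r = 0.925) and ISX (r = 0.922). The points share libraries and depth, and these values are descriptions. An unnamed cluster of 167 cells, not among the 11, stood apart: at 141172 and 63772 CPM of INS it had 44.68 and 26.12 CPM of SLC30A8, or 0.3262 UMIs per 1000 INS UMIs (0.2495 to 0.4191). The nearest of the other members was SLC39A7 at r = 0.568, and SLC39A1 ran the other way at r = -0.427. Per 1000 INS UMIs, SLC30A8 had 3.09 UMIs in beta-like cells (3.075 to 3.104), 2.757 in beta cell progenitor-like cells (2.721 to 2.793), 1.985 in alpha-like cells (1.963 to 2.006) and 1.245 in delta-like cells (1.221 to 1.27). In the finer clusters that kept the beta cell progenitor-like name the ratio was 2.359 (2.32 to 2.399) and 1.985 (1.783 to 2.203), below that of the class. The 16.7-fold range of SLC30A8 over the classes ends at duct-like cells, whose SLC30A8 UMIs are not read as expression. It is therefore not set against these ratios. The ratio in duct-like cells, 2.113 (1.83 to 2.428), lay inside the range of the endocrine classes. It is not read as expression either, since free RNA or uncalled doublets could bring in both genes.

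Within classes the tie to INS was uneven. Cells of each class and library were put into quintiles by the share of INS among their UMIs, and SLC30A8 was given per 1000000 UMIs outside hormone, metallothionein and mitochondrial genes. In beta cell progenitor-like cells SLC30A8 rose from 77.51 CPM (73.62 to 81.56) in the lowest quintile through 90.41, 138.0 and 257.8 CPM to 440.0 CPM (432.1 to 448.0) in the highest, a 5.68-fold difference (5.38 to 6.0) that was 5.29-fold in the library labelled no DOX and 6.22-fold in that labelled DOX. In delta-like cells the same step was 2.29-fold (2.14 to 2.45) and in alpha-like cells 1.63-fold (1.57 to 1.69). In beta-like cells it was 1.16-fold (1.15 to 1.18), from 848.3 to 987.9 CPM, while IAPP, which encodes the amyloid peptide co-secreted with insulin, was 7.5-fold higher over the same quintiles and ENTPD3, a beta cell marker, 1.17-fold lower (1.11 to 1.23). In beta cell progenitor-like cells of both libraries together SLC30A1 was 1.04-fold higher in the highest than in the lowest quintile, within counting error. SLC30A5 was 1.15-fold lower in the highest than in the lowest quintile. Within the library labelled DOX alone this step of SLC30A5 was 1.19-fold lower. In alpha-like cells SLC30A1 was 1.4-fold higher (1.28 to 1.53) in the upper quintile. ENTPD3 was 17.5-fold higher (10.5 to 31.6) in the upper quintile of beta cell progenitor-like cells, at 13.73 against 0.783 CPM, and IAPP 1.84-fold higher (1.48 to 2.31), while in alpha-like cells IAPP was 2.28-fold lower (1.96 to 2.65). The finer clustering kept the beta cell progenitor-like name for 8659 and 1039 cells, in clusters at 141.2 and 38.61 CPM of all UMIs with 13982 and 352 SLC30A8 UMIs, where the class of 10681 cells held 22951, so part of its SLC30A8 came from cells that the finer clustering placed elsewhere. How far cells between classes or uncalled doublets make up this gradient was not tested.

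**Figure D2:**
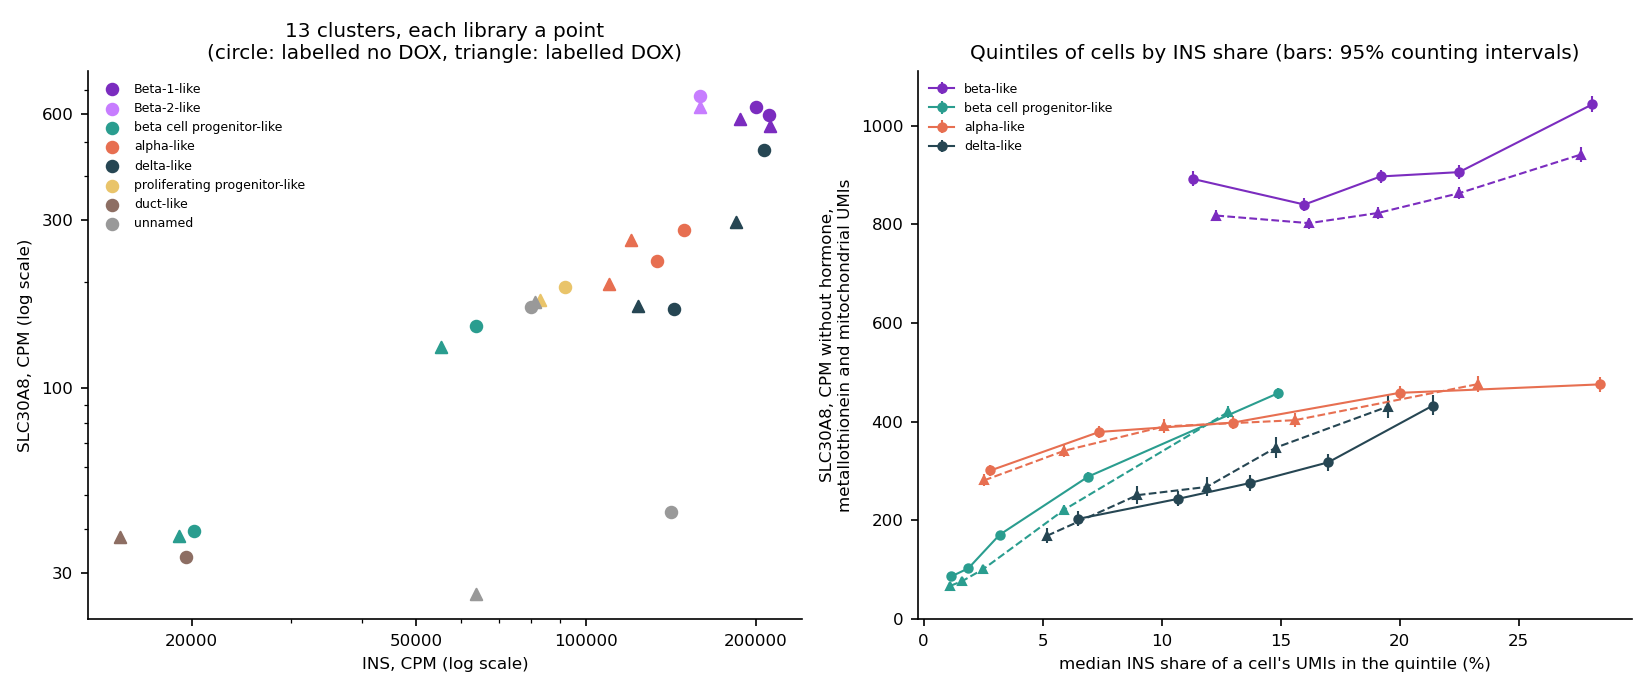
Left, level of SLC30A8 against level of INS (both in CPM, log axes) in 13 clusters, 1 point for each cluster and library. Right, SLC30A8 (per 1000000 UMIs outside hormone, metallothionein and mitochondrial genes, with 95% counting intervals) over quintiles of cells within each endocrine class and library, placed at their median INS share (%): the steepest line is that of beta cell progenitor-like cells, 77.51 to 440.0 CPM over both libraries, and that of beta-like cells is flatter, 848.3 to 987.9 CPM.

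Against beta cell progenitor-like cells, beta-like cells differed at least 2-fold in 2 of the 9 members that reached 5 CPM in either class. SLC30A8 was 3.29-fold higher (log2 ratio 1.72, 1.70 to 1.74), where 3.76% of 10987 genes were at least 2-fold higher. SLC39A14, whose product ZIP14 takes up zinc, iron and manganese, was 5.45-fold lower (log2 ratio -2.45, -2.49 to -2.41), where 26.9% of genes were at least 2-fold lower. The median log2 ratio of the 9 members was -0.31 against -0.59 for all genes tested. SLC39A6, which encodes the plasma membrane importer ZIP6, fell just outside the 2-fold mark at 1.97-fold lower. When called doublets were kept, the SLC30A8 difference was a log2 ratio of 0.96 and no longer reached 2-fold.

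SLC39A14 was highest in beta cell progenitor-like cells and had the next widest range over the classes after SLC30A8 among the 9 members tested, 6.27-fold. Its level there was 140.9 CPM (138.1 to 143.8) without DOX and 137.7 CPM (134.7 to 140.7) with DOX. All other classes lay between 18.97 and 48.85 CPM in both libraries, so that no class overlapped with beta cell progenitor-like cells. Beta-like cells held 26.4 and 24.87 CPM and alpha-like cells 41.51 and 32.23 CPM. At 5000 UMIs per cell, SLC39A14 was seen in 49.64% of beta cell progenitor-like cells (48.67 to 50.61) against 11.68% of beta-like cells (11.19 to 12.19) and 10.87% of duct-like cells. The gene lies on chromosome 8.

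SLC39A6 had the same leading class at a smaller size. Beta cell progenitor-like cells had 83.66 and 82.01 CPM, delta-like cells had 58.25 and 57.81 CPM, and the remaining classes lay between 40.24 and 49.23 CPM. The steps from the first class to the second and from the second to the third held in both libraries, and the classes below could not be ordered. SLC39A6 lies at chr18:36108531-36129385 on the minus strand.

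Against alpha-like cells, 1 of 9 members was at least 2-fold higher in beta-like cells and 0 were lower. This was SLC30A8 at 2.23-fold (2.21 to 2.26), where 5.33% of genes were higher and 6.18% lower by that much. The members' median log2 ratio was -0.061 against -0.043 for all genes. SLC39A14 was next in size at 1.47-fold lower (1.41 to 1.52). Against delta-like cells, again 1 member was higher and 0 were lower, SLC30A8 at 3.57-fold (3.5 to 3.65), where 5.95% of genes were higher and 5.05% lower. SLC30A7, whose product ZnT7 fills Golgi vesicles with zinc, was 1.8-fold lower in beta-like than in delta-like cells (1.73 to 1.88), the nearest to the 2-fold mark. Per UMI outside hormone, metallothionein and mitochondrial genes SLC30A7 passed that mark, at a log2 ratio of -1.13.

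Among the transporters of the early secretory pathway and of mitochondria, SLC30A5 and SLC30A9 had narrow ranges over the classes and SLC30A7 a wider one of 2.72-fold. SLC30A5, whose product ZnT5 supplies zinc to enzymes made in the Golgi, ranged over both libraries from 19.35 CPM in duct-like to 35.81 CPM in beta cell progenitor-like cells. SLC30A7 ranged from 18.09 CPM in duct-like to 49.17 CPM in delta-like cells. Delta-like cells, at 49.43 and 48.81 CPM, differed from beta cell progenitor-like cells, at 48.44 and 44.96 CPM, beyond counting error only in the library labelled DOX. SLC30A9, whose product ZnT9 carries zinc out of mitochondria, ranged 1.71-fold, from 30.6 CPM in delta-like to 52.42 CPM in the beta cell progenitor-like class, the smallest range of the 10 members. SLC30A5 lies at chr5:69093991-69131069, SLC30A7 at chr1:100896076-100981757 and SLC30A9 at chr4:41990502-42090461, all on the plus strand. A gene on the other strand overlaps SLC30A5, and reads from the pair could be mixed if strand was not used in counting.

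SLC39A7, whose product ZIP7 releases zinc from the endoplasmic reticulum, was close to even over 5 classes and lower in duct-like cells. It ranged from 98.59 CPM in proliferating progenitor-like to 113.9 CPM in beta cell progenitor-like cells over both libraries. In duct-like cells it was 63.76 CPM (54.21 to 74.51) and 48.51 CPM (41.01 to 56.98). The order of beta-like and beta cell progenitor-like cells did not hold in both libraries. SLC39A7 (chr6:33200305-33204439, plus strand) overlaps RXRB on the other strand.

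Duct-like cells were set against all 4 endocrine classes, a comparison in which many of all genes differed as well. Of 9 members, SLC39A1 was at least 2-fold higher (20.2% of 11699 genes were), and SLC30A1, SLC30A8 and SLC39A14 were at least 2-fold lower (17.2% of genes were). SLC39A1, whose product ZIP1 takes up zinc at the plasma membrane, was at 61.31 CPM in duct-like against 25.94 CPM in endocrine cells, a ratio of 2.36 (2.12 to 2.63). Its lowest class was delta-like at 20.02 and 17.71 CPM. SLC30A8 UMIs were 11.2-fold lower (9.71 to 12.9), SLC30A1 2.65-fold lower (2.19 to 3.24) and SLC39A14 2.41-fold lower (2.02 to 2.91). SLC39A7 at 1.97-fold and SLC30A7 at 1.92-fold lower were just outside the mark, and the members' median log2 ratio was -0.94 against 0.082 for all genes. Endocrine cells spend a large part of their UMIs on hormones: per UMI outside hormone, metallothionein and mitochondrial genes, the log2 ratio of SLC39A1 was 0.89 and no longer reached 2-fold, while 6 members were then at least 2-fold lower. With doublets kept SLC39A1 was at 0.9, SLC30A1 at -0.8 and SLC39A14 at -0.71, and of the members only SLC30A8, at -1.33, stayed at least 2-fold lower. SLC39A1 (chr1:153959099-153968184, minus strand) overlaps CREB3L4 on the other strand.

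In proliferating progenitor-like cells 0 members were at least 2-fold higher than in the endocrine classes, where 11.3% of genes were, and 2 were lower, where 2.35% of genes were. These were SLC30A1, 2.19-fold lower (1.98 to 2.43), and SLC30A8, 2.11-fold lower (2.04 to 2.19). Without the library labelled DOX, SLC30A8 was at a log2 ratio of -0.99 and only SLC30A1 passed. The median log2 ratio was -0.15 for the members and 0.11 for all genes. Metallothioneins summed to 649.6 and 578.4 CPM in the same cells, against 3085 and 2311 CPM over the endocrine classes, where beta-like cells lead. Beta cell progenitor-like cells were as low, at 616 and 500.1 CPM, and alpha-like cells held 817.9 and 632.2 CPM. A low metallothionein level was thus not particular to proliferating progenitor-like cells. SLC30A1 was higher in beta cell progenitor-like and alpha-like cells than in proliferating progenitor-like cells. What part metallothioneins have in the SLC30A1 level was not tested.

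A finer clustering named 11864 cells Beta-1-like, in 2 clusters of which the larger was led by metallothioneins, and 5395 cells Beta-2-like. None of the 9 members differed 2-fold between them, against 1.98% of genes at least 2-fold higher in Beta-1-like cells and 4.84% lower. SLC39A6 was 1.6-fold lower in Beta-1-like cells (1.55 to 1.66), from 59.49 to 37.11 CPM, and SLC39A14 1.58-fold lower (1.51 to 1.65), from 37.22 to 23.61 CPM. The SLC39A14 difference moved with the clustering, from a log2 ratio of -1.16 with doublets kept to -0.05 without cells of over 20% mitochondrial UMIs. SLC30A9 was 1.37-fold lower and SLC30A1 1.21-fold higher. SLC30A8 was close in the 2 groups, at 599.8 and 559.5 CPM in Beta-1-like and 672.3 and 625.1 CPM in Beta-2-like cells. Per 1000 INS UMIs, SLC30A8 was at 4.073 in Beta-2-like cells (4.041 to 4.106) and at 2.78 in Beta-1-like cells (2.764 to 2.796).

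Other genes of zinc handling and of the insulin granule were counted in the same comparisons, whose shares over all genes are given above. These genes took part in the clustering, unlike the zinc transporters, so their counts describe the classes. Of 11 zinc handling genes tested (metallothioneins, MTF1 and the vesicular zinc carrier TMEM163), beta-like cells had 8 at least 2-fold higher and 1, MTF1, lower than beta cell progenitor-like cells, 9 higher and 0 lower than alpha-like cells, and 8 higher and 1, TMEM163, lower than delta-like cells. Beta-1-like cells had 9 of these metallothioneins at least 2-fold above Beta-2-like cells, where 0 of the transporters passed. The granule list holds 12 genes, which but for G6PC2 encode hormones, their processing enzymes and granins. Of these 12, 6 were higher in beta-like than in beta cell progenitor-like cells, among them INS and IAPP. Another 4 were lower, among them the prohormone convertases PCSK1 and PCSK2. In duct-like cells 12 of 12 granule genes were at least 2-fold lower than in the endocrine classes, as SLC30A8 was, beside 6 of 11 zinc handling genes. In proliferating progenitor-like cells 9 of 11 zinc handling genes and 2 of 12 granule genes were lower and 0 of either list were higher. Of 7 islet transcription factors, MAFA and ISL1 were at least 2-fold higher and NKX2-2 lower in beta-like than in beta cell progenitor-like cells.

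SLC30A1, whose product ZnT1 exports zinc across the plasma membrane, was at like levels in the endocrine classes. In the library labelled no DOX it was at 62.27 CPM (60.91 to 63.65) in beta-like, 58.67 in delta-like, 51.74 in alpha-like and 49.76 in beta cell progenitor-like cells. In the library labelled DOX the same classes held 47.1, 49.51, 42.58 and 44.13 CPM. Proliferating progenitor-like cells held 24.54 and 22.21 CPM and duct-like cells 26.63 and 13.44 CPM. The level of beta-like cells was above that of alpha-like cells in both libraries, and the endocrine classes were above proliferating progenitor-like cells, while the other neighbours in the order could not be told apart in both. The genes most like SLC30A1 over clusters were GAA (r = 0.85), IGFBP5 (r = 0.845), SLC46A1 (r = 0.839), HM13 (r = 0.82) and SLC33A1 (r = 0.816), and the summed metallothioneins had r = 0.445. SLC30A1 lies at chr1:211571568-211579161 on the minus strand.

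Within beta-like cells SLC30A1 climbed with metallothioneins. Beta-like cells of each library were put into quintiles by the share of 12 metallothionein genes among their UMIs, from a median of 0.0222% in the lowest to 0.841% in the highest quintile in the library labelled no DOX, and from 0.0155% to 0.517% in that labelled DOX. Levels over these quintiles are CPM without metallothionein UMIs. SLC30A1 went from 37.8 CPM (35.3 to 40.44) through 44.06, 54.79 and 70.41 to 95.54 CPM (92.1 to 99.09) without DOX, and from 30.96 CPM (28.9 to 33.12) through 36.3, 40.55 and 52.61 to 70.09 CPM (67.36 to 72.9) with DOX. Each quintile lay above the one before it in both libraries. The highest over the lowest quintile was 2.4-fold (2.28 to 2.54), rank 56 of 9869 genes from the top.

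**Figure D3:**
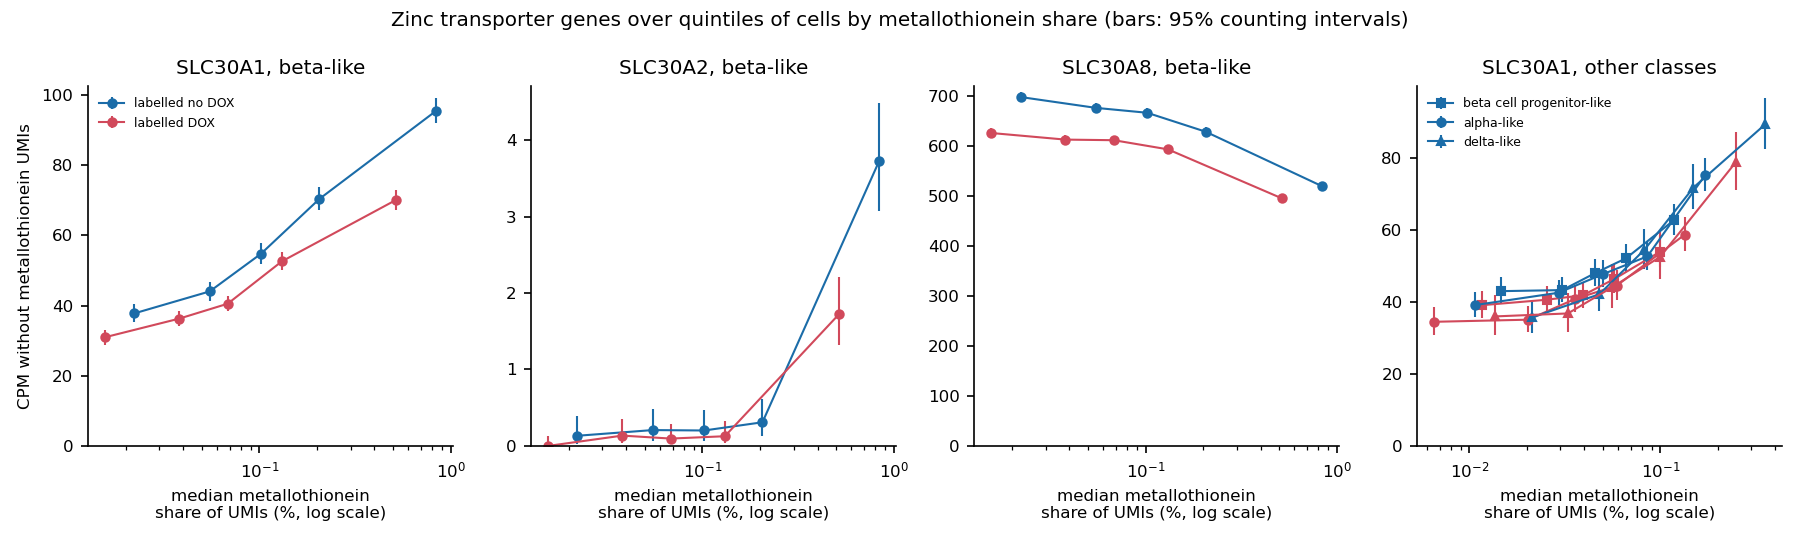
SLC30A1, SLC30A2 and SLC30A8 (CPM without metallothionein UMIs, with 95% counting intervals) over quintiles of beta-like cells by metallothionein share in each library, and SLC30A1 over the quintiles of 3 other classes, each point placed at the median metallothionein share (%, log axis). SLC30A1 climbs from 37.8 to 95.54 CPM without DOX and from 30.96 to 70.09 CPM with DOX, SLC30A2 is highest in the upper quintile, and SLC30A8 is lower in each quintile than in the one before.

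Of the 9 members tested over these quintiles, 1 was at least 25% higher in the upper quintile, SLC30A1, where 5.39% of genes were, and 2 were at least 20% lower, where 9.56% of genes were. SLC30A8 was 1.3-fold lower (1.28 to 1.32), at 519.5 CPM in the highest against 698.2 CPM in the lowest quintile without DOX, and 495.4 against 626.3 CPM with DOX. SLC39A6 was also 1.3-fold lower (1.23 to 1.38), at 34.41 against 44.73 CPM over both libraries. The median log2 ratio was -0.16 for the members and -0.091 for all genes. Beta cell transcripts moved over the same quintiles as well. ENTPD3 was 2.49-fold lower in the upper quintile, 4 of 12 granule genes were at least 20% lower, among them IAPP at 2.11-fold, and 3 were at least 25% higher. Of the islet factors, 4 of 7 (PDX1, NKX6-1, MAFA and ISL1) were at least 20% lower. Their part in the SLC30A8 difference was not tested. MTF1, the zinc sensor, differed by a log2 ratio of -0.051.

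The rise of SLC30A1 was also present inside single clusters and in other classes. The log2 ratio of the upper over the lower quintile was 1.29 (1.18 to 1.39) in the larger Beta-1-like cluster, 1.253 (1.049 to 1.461) in the smaller and 1.07 (0.93 to 1.21) in the Beta-2-like cluster. It was 1.249 (1.082 to 1.418) in delta-like, 0.88 (0.76 to 1.00) in alpha-like and 0.52 (0.40 to 0.64) in beta cell progenitor-like cells. SLC30A8 had log2 ratios of -0.45 in the larger Beta-1-like cluster, -0.31 (-0.37 to -0.25) in the smaller and -0.058 in the Beta-2-like cluster. In the other classes its ratio was -0.21 (-0.31 to -0.12) in delta-like and -0.086 (-0.14 to -0.035) in alpha-like cells. In alpha-like cells it was -0.16 (-0.23 to -0.095) without DOX and 0.022 (-0.059 to 0.10) with it. In beta cell progenitor-like cells it was -0.060 (-0.12 to 0.002), and the libraries went apart at 0.10 without DOX and -0.36 with it.

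SLC30A2, whose product ZnT2 moves zinc into vesicles and is known from the mammary gland, was near the limit of detection. It had 134 UMIs in beta-like cells of the library labelled no DOX (1.047 CPM, 0.8768 to 1.239) and 72 in those of the library labelled DOX (0.4643 CPM, 0.3633 to 0.5847). In the other classes it had 1 to 15 UMIs in each library, so it never reached 5 CPM and entered no count of members. Of the 206 UMIs in beta-like cells, 174, or 84.5% (78.8 to 89.1), came from the quintile with the most metallothionein, which held 23.6% of all UMIs of the class. The shares were 84.3% and 84.7% in the 2 libraries. Genes of like low counts were not set beside SLC30A2, and it was not followed inside single clusters. The upper quintile exceeded the lowest 43.8-fold, with an interval of 14.7 to 214, because the lowest quintile held 3 UMIs. SLC30A2 lies at chr1:26037252-26046118 on the minus strand.

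Between the libraries, 0 of 9 members were at least 25% higher or 20% lower over all cells kept, against 1.17% of 10443 genes higher and 2.01% lower in the library labelled DOX. The members' median log2 ratio of DOX over no DOX was -0.066, and that of all genes -0.0064. SLC30A1 came nearest, at 44.83 CPM with DOX against 55.31 CPM without (1.23-fold lower, 1.21 to 1.26), followed by SLC39A14 at 49.41 against 56.28 CPM (1.14-fold lower, 1.11 to 1.16). SLC30A8 was at 393.7 against 387.5 CPM. In beta-like cells alone SLC30A8 was lower, with a log2 ratio of -0.11 (-0.12 to -0.095), and in beta cell progenitor-like cells the ratio was -0.29 (-0.33 to -0.25), so the sign over all cells differed from that within these classes. In the larger finer cluster named beta cell progenitor-like, SLC30A8 was at 130.9 CPM with DOX against 150.1 CPM without. In the smaller it was at 38.08 against 39.4 CPM, within counting error. More of the cells of the library labelled DOX were beta-like, 9840 of 23117 against 6836 of 21563. The study reported larger fractions of alpha-like, delta-like and beta cell progenitor cells with DOX, after its own cell filter and clustering. Here alpha-like cells were 4115 against 5013, delta-like cells 1944 against 2625 and beta cell progenitor-like cells 5362 against 5319. As shares of the 23117 and 21563 cells kept, each of these classes was smaller with DOX. Why these shares differ from those of the study was not tested.

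SLC30A1 was lower in the library labelled DOX in 5 of 6 classes beyond counting error, a count that was not made over all genes. The log2 ratio was -0.40 (-0.45 to -0.36) in beta-like, -0.28 in alpha-like, -0.24 in delta-like, -0.17 in beta cell progenitor-like, -0.14 (-0.44 to 0.15) in proliferating progenitor-like and -0.99 (-1.59 to -0.40) in duct-like cells. The ratios of SLC30A7 and SLC39A6 lay between -0.19 and -0.011, with intervals that held 0 in 4 and 5 of the 6 classes. Counted within classes, beta-like cells had 1 member at least 20% lower, SLC30A1 (2.46% of genes were), and alpha-like cells had 1, SLC39A14 (2.01% of genes were). In duct-like cells 1 was at least 25% higher and 2 at least 20% lower, where 17.9% and 20.2% of genes were, and no member passed in the other 3 classes.

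Metallothioneins differed between the libraries in the same direction as SLC30A1. Of 11 genes tested on the zinc handling list, 8 were at least 20% lower in the library labelled DOX, all of them metallothioneins. MT2A was at 627.1 against 795.9 CPM, MT1X at 417.1 against 572.3 CPM and MT1B at 18.21 against 54.74 CPM. The summed level of metallothioneins in beta-like cells was 3746 CPM with DOX and 5987 CPM without. MTF1 was at 10.17 and 10.25 CPM. On the granule list 1 of 12 genes, G6PC2, was lower, and of the islet factors 1 of 7, MAFA, was higher. Beta-like cells of both libraries were also put into the same quintiles of metallothionein share. SLC30A1 was lower in the library labelled DOX in 5 of 5 quintiles, a count that was not made over all genes. Its log2 ratios were -0.23, -0.16, -0.23, -0.23 and -0.38, of which only the last passed the mark of 20% lower. In the lowest quintile the levels were 32.09 against 37.7 CPM and in the highest 70.63 against 91.82 CPM. SLC30A8 was lower in 5 of 5 quintiles as well, with log2 ratios between -0.18 and -0.13. What part metallothioneins have in these differences was not tested. With 1 library per condition, DOX and any other difference between the libraries cannot be told apart.

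**Figure D4:**
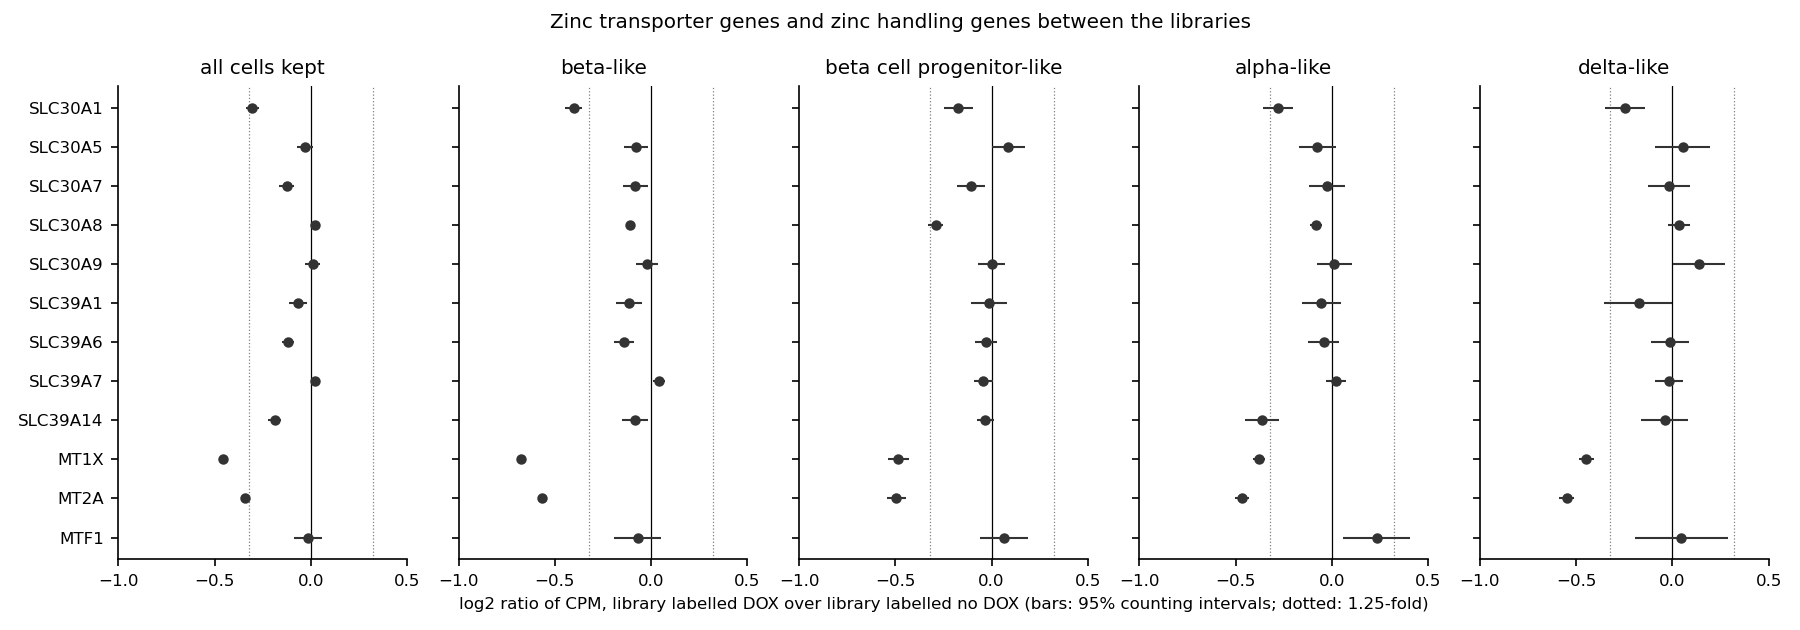
Log2 ratio of CPM, DOX over no DOX, for the 9 members that reach 5 CPM and for MT1X, MT2A and MTF1, over all cells kept and in the 4 endocrine classes, with 95% counting intervals, a solid line at 0 and dotted lines at 25% higher and 20% lower. SLC30A1 lies below 0 in all 5 panels and passes the dotted line in beta-like cells at -0.40, MT1X and MT2A lie below the dotted line throughout, and of the other members only SLC39A14 passes it, in alpha-like cells at -0.37.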

How the data were processed

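The authors deposited UMI counts per gene and barcode, without normalization. The file headers name Cell Ranger 3.0.2. The submitters' notes list Cell Ranger 3.0, kallisto, bustools 0.40.0, Scanpy, Seurat and GRCh38, and the methods describe kallisto and bustools counts, so the deposited counts need not be those behind the published clusters.

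Barcodes of at least 1000 UMIs were kept, and doublets (27.4% and 26.5% per library) were removed with the Scrublet function of scanpy 1.11.5. Clustering followed the methods: 2298 highly variable genes less 3 zinc transporter genes, 50 principal components, 3 neighbours per library, and Leiden (leidenalg 0.10.2) at resolution 0.2, with 0.5 for Beta-1-like, Beta-2-like and cluster values. For a cluster to be named, the markers of a class had to average a log2 fold of 1 or more, with at least 3 of them raised 2-fold, a marker among its 10 leading genes, and no other class with more. These thresholds were set with the data seen. Most markers come from lists the study made on these libraries.

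Levels are summed UMIs per 1000000 (CPM). Intervals (scipy 1.17.1) are exact Poisson for levels, conditional binomial for ratios and Clopper-Pearson for shares. Genes of at least 5 CPM in either group were counted as differing at 2-fold between classes, or at 25% higher or 20% lower between libraries and quintiles. Cell depth ranged from 500 to 86243 and from 500 to 96590 UMIs over 550240855 and 520849221 UMIs in all. UMIs of 1 cell are not independent of each other, and intervals do not cover the spread between cells or cultures. The step from counts to ratios was tested on simulated data. Positions are from GENCODE 44 on GRCh38.

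The genes named are the 10 members, the other 14 SLC30A and SLC39A genes, fixed lists of zinc handling, granule and transcription factor genes, and the 5 genes most like SLC30A8 and SLC30A1. Members, lists and markers were chosen with earlier results of these data known. The INS quintiles, values per INS UMI, quintiles within clusters, common quintiles and promoter search were added after seeing the data. Alternatives were 2000 UMIs per barcode, a limit of 20% mitochondrial UMIs, doublets kept, totals without hormone, metallothionein and mitochondrial UMIs, thinned cells, another Leiden resolution or seed, other genes used to cluster, equal class weights, scaling to the median ratio, each library or class alone, and other splits of the cells. Results that need 1 of the named items are not reported here.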

Additional observations from a re-analysis of the deposited data

How the results depend on the processing

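No paired analysis was possible because each condition is 1 library. Of the counts of members past a fold, 149 of 164 alternative values stayed within 1.5 times the count given, and of the values for single genes 1054 moved by less than counting error and 532 by more, the latter including 58 of 100 ratios between Beta-1-like and Beta-2-like cells and 28 of 48 over metallothionein quintiles. Of the ratios, 0 that passed their fold changed sign, and 47 that did not pass did. With doublets kept, 0 members were higher in beta-like than in beta cell progenitor-like cells, 0 were higher and 1 lower in duct-like cells, and 1 was lower in Beta-1-like cells; the proliferating class then had no cluster of its own and no value. Without hormone, metallothionein and mitochondrial UMIs, 1 member was lower in beta-like than in delta-like cells, and 0 were higher and 6 lower in duct-like cells. The library labelled no DOX alone gave 1 member lower in proliferating progenitor-like cells, and the library labelled DOX alone gave 2 lower in beta-like than in beta cell progenitor-like cells. Between the libraries, 1 member was lower in beta-like cells alone and 1 in alpha-like cells alone. Over metallothionein quintiles, 0 members were lower in delta-like, in alpha-like and in beta cell progenitor-like cells, and 0 with beta-like cells split at their median share. The cause of these moves was not tested. The main limits are 1 library per condition, class names that rest on markers picked from the same libraries, and 329 duct-like cells, in which the tested members rest on 41 to 189 UMIs in a library.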

Other observations

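The other 14 genes of the families held a few class differences of their own. SLC39A5, whose product ZIP5 lies in the basolateral membrane of epithelial cells, was at 43.0 CPM in beta-like and 8.734 CPM in alpha-like cells, 4.92-fold apart (4.62 to 5.25). In the finer clustering it was at 54.51 CPM in Beta-1-like and 13.85 CPM in Beta-2-like cells, 3.94-fold apart (3.72 to 4.17), where no member reached 2-fold. Its gene overlaps ANKRD52, and reads of the pair could be mixed if strand was not used in counting. SLC39A8, whose product ZIP8 takes up zinc and manganese, ran the other way, at 14.51 CPM in proliferating progenitor-like, 8.017 CPM in alpha-like and 0.8795 CPM in beta-like cells. SLC30A10, which encodes a manganese exporter, was 12.9-fold higher in beta cell progenitor-like than in beta-like cells, at 6.944 against 0.5404 CPM (interval of the ratio 10.8 to 15.4), and SLC30A4, which encodes a zinc carrier of vesicles, was at 14.47 and 5.863 CPM. SLC39A12 had 0 UMIs in all 614275674 UMIs of the cells kept, which allows a level of up to 0.00488 CPM (3 counts of that total). Between the libraries, 0 of 8 of these genes that were tested were 25% higher or 20% lower with DOX over all cells, and SLC39A10 came nearest at 45.67 against 40.82 CPM, with a log2 ratio of 0.16 (0.13 to 0.20), beside SLC39A11 at -0.16.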
